A study of Mus musculus with 12 samples.

Results

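Small leucine-rich proteoglycans are secreted matrix proteins whose repeat-rich cores bind collagen fibrils and several growth factors. In skeletal muscle they are made mainly by the fibroblasts and fibro-adipogenic progenitors that lie between the fibres and sheathe the bundles, and these cells also carry surface proteins such as Cd34 and Ly6a. The genes followed were Dcn, Lum, Ogn and Bgn, which encode such proteoglycans, Dpt and Mfap5, which encode other matrix proteins, Clec3b and Pi16, which encode secreted proteins, and the surface proteins Cd34 and Ly6a. They were given as a list of names, and that list was proposed with earlier results of these data known, so the number of them called describes them and is no independent evidence. Each matched 1 of the 55416 gene identifiers in the files, so the list holds 10 genes.

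The RNA came from a muscle of the calf, the gastrocnemius, and from a region of the brain, the hypothalamus, of 6 male BALB/c mice whose labels give an age of 7 weeks. In the CT-26 group, 3 mice had been injected subcutaneously at the abdomen with CT-26, a colon carcinoma line of mouse origin. Per the labels' protocols these mice weighed 7 to 10% less than healthy mice by day 10, a sign of cachexia, the wasting that accompanies some tumours, and tissue was taken on day 25. The control group was 3 healthy mice without such an injection, and their day of collection is not given in the labels. No transgene or other allele is named for either group, and both tissues of a numbered mouse were sequenced, which gave 4 groups of 3 libraries.

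Totals of the estimated counts lay between 26015741 and 42771331 per gastrocnemius library and between 27195316 and 52535761 per hypothalamus library. The muscle libraries carried the muscle genes Ckm, Acta1 and Myh4 at 12350 CPM (counts per 1000000 counts of the library) or more each and the neuronal gene Snap25 at no more than 0.584 CPM, while Snap25 reached 1036 to 1225 CPM in the hypothalamus. Mitochondrial genes took 8.26 to 11.1% of the counts in CT-26 muscle and 13.5 to 19.7% in control muscle, and the part of this difference in the results was not tested. In whole-tissue RNA, fewer cells of a type and less RNA of a gene per cell cannot be told apart.

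In the gastrocnemius 7 of the 10 genes were lower in CT-26 mice than in controls. Ogn, Clec3b, Pi16, Dpt, Lum, Cd34 and Dcn were 5.0-fold to 1.54-fold lower, while Bgn, Mfap5 and Ly6a did not pass the test. The threshold for a call was an adjusted p under 0.05 in edgeR's quasi-likelihood test with Benjamini-Hochberg adjustment over all 14265 genes tested, and CPM below are scaled by edgeR's TMM factors. By the same rule 18.3% of all genes tested were lower and 19.6% were higher. The median log2 fold change, CT-26 over control, was -0.94 over the 10 genes and 0.00 over all genes tested. In each of the 7 called genes, every CT-26 library lay below every control library, which held for 25.3% of all genes tested.

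**Figure D1:**
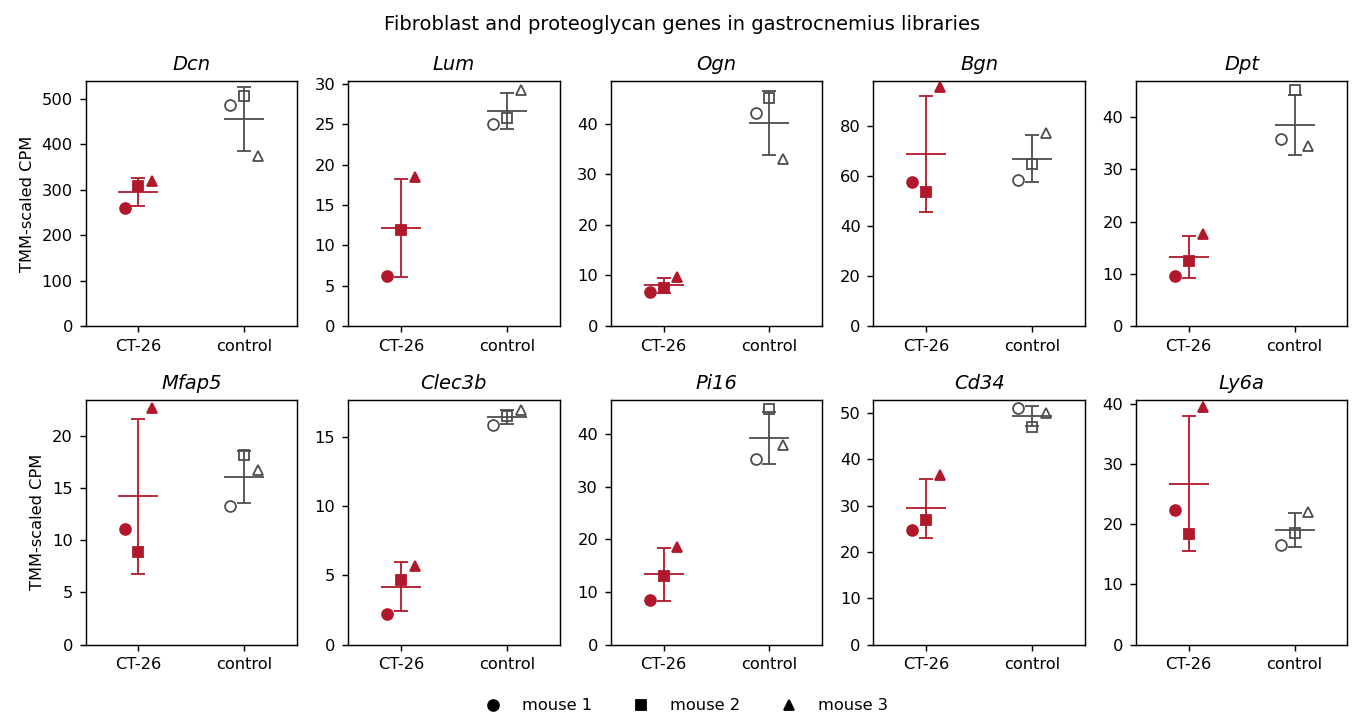
Level of each of the 10 genes in the 6 gastrocnemius libraries, in TMM-scaled CPM on a linear axis from 0, with 1 point per mouse, the group mean as a long bar and the SD as whiskers. CT-26 mouse 3, the filled triangle, is the highest of its group in all 10 panels, and the groups overlap only for Bgn, Mfap5 and Ly6a.

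On GRCm38, in GENCODE's annotation, Dcn lies at chr10:97479609-97518143, Lum at chr10:97565128-97572703, Bgn at chrX:73483602-73495933 and Dpt at chr1:164796644-164824266. Mfap5 lies at chr6:122505845-122529290, Clec3b at chr9:123150946-123157432, Pi16 at chr17:29317680-29330593, Cd34 at chr1:194938819-194961279 and Ly6a at chr15:74994877-74998031. All are protein-coding and on the plus strand except Ly6a, which is on the minus strand. Ogn lies across from Cenpp on the opposite strand, which averaged 0.642 CPM in muscle, and the antisense genes across from Pi16, Dpt and Cd34 averaged 0.0882, 0.0175 and 0.216 CPM there.

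The 4 proteoglycans of the list moved unequally. Ogn, which encodes osteoglycin (mimecan), a proteoglycan of collagen-rich tissue, had 6.82, 7.59 and 9.68 CPM in the muscle of CT-26 mice 1, 2 and 3, against 42.3, 45.2 and 33.0 CPM in control mice 1, 2 and 3. The CT-26 libraries lay close together and far below the lowest control. Ogn fell by 2.32 ± 0.18 on the log2 scale (SE, n = 3 mice per group; edgeR adjusted p = 0.00019). It lies at chr13:49608046-49624501 (GRCm38, plus strand) and was the lowest of the 10 in CT-26 muscle on the per-length TPM scale.

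Lum encodes lumican, which regulates the thickness and spacing of collagen fibrils, and had 6.25, 11.9 and 18.4 CPM in CT-26 muscle, against 25.0, 25.8 and 29.2 CPM in control muscle. The 3 control libraries were close to each other, whereas the CT-26 libraries were spread from mouse 1, the lowest, to mouse 3, and the groups did not overlap. Lum fell by 1.13 ± 0.33 on the log2 scale (SE, n = 3; edgeR adjusted p = 0.026). Leaving out any 1 of the control mice took the adjusted p of Lum to between 0.057 and 0.0708.

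Dcn encodes decorin, which sits on collagen fibrils, carries a single glycosaminoglycan chain and binds TGF-beta. It had 260.5, 307.5 and 318.5 CPM in CT-26 muscle, against 486.3, 505.3 and 374.4 CPM in control muscle. Control mouse 3 was the lowest of its group and still lay above all 3 CT-26 mice. Dcn fell by 0.62 ± 0.16 on the log2 scale (SE, n = 3; edgeR adjusted p = 0.019), the smallest of the 7 changes called. The call depended on scaling and on single mice: the adjusted p was 0.0933 when counts were scaled by library totals, 0.359 for log2(TPM + 0.5) in limma, and 0.057 to 0.0757 without CT-26 mouse 1, control mouse 1 or control mouse 2.

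Bgn encodes biglycan, the closest relative of decorin, and had 57.7, 53.4 and 95.4 CPM in CT-26 muscle, against 58.5, 64.8 and 76.9 CPM in control muscle. CT-26 mouse 3 was the highest of all 6 libraries and the other two CT-26 mice the lowest, so the groups overlapped over their whole range. The log2 fold change of Bgn was 0.04 ± 0.23 (SE, n = 3; edgeR adjusted p = 0.893).

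For Ogn and Bgn, the proteoglycans of the list with the largest fall and with no call, and for Pi16, a called gene that is no proteoglycan, the 150 bases before the RefSeq transcript start are shown 5′ to 3′ (RefSeq, GRCm38.p6, plus strand). Capitals mark matches to the motifs searched, on either strand.
Ogn, chr13:49607865-49608014: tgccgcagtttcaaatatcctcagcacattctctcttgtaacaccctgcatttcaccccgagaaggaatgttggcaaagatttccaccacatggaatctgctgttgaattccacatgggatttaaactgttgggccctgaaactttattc
Pi16, chr17:29318732-29318881: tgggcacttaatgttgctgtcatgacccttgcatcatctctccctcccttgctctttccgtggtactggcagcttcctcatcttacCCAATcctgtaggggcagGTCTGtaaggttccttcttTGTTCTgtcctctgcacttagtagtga
Bgn, chrX:73483451-73483600: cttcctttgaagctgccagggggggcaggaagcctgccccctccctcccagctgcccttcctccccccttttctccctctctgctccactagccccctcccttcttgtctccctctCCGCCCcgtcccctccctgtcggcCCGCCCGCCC

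Each motif was searched on both strands of the 250 bases before the start, and its share is of 32851 promoters of that length. The TATA box, as TATAAA, occurs in 12.4% of them, the CCAAT box in 33.8% and the GC box, as GGGCGG, in 32.7%. The SMAD box, as CAGAC, occurs in 42.2%, the AP-1 site, as TGANTCA, in 6.75%, and the glucocorticoid receptor half-site, as AGAACA, in 16.1%. Bgn had 3 GC boxes on the minus strand, at 34, 10 and 6 bases before the start, the last pair overlapping, and a glucocorticoid half-site on the minus strand at 241 bases, outside the bases shown. Pi16 had a CCAAT box at 64 bases, a SMAD box at 46 bases and a glucocorticoid half-site at 27 bases before the start, so Pi16 and Bgn were the 2 of the matched genes with that half-site. Ogn had none of the motifs in the bases shown and a TATA match on each strand at 227 and 229 bases before the start. Of the 10 genes, 5 matched an entry of this promoter table: Ogn, Pi16, Bgn, Dpt and Cd34. The RefSeq start of Pi16 lies inside the gene as GENCODE draws it, downstream of the GENCODE start.

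Among the other matrix proteins, Dpt encodes dermatopontin, a small protein that binds decorin and collagen fibrils. It had 9.53, 12.5 and 17.6 CPM in CT-26 muscle, against 35.9, 45.1 and 34.4 CPM in control muscle. The groups lay well apart, and Dpt fell by 1.55 ± 0.22 on the log2 scale, or 2.92-fold (SE, n = 3; edgeR adjusted p = 0.00156).

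Mfap5 encodes a glycoprotein of the fibrillin microfibrils that surround elastic fibres. It had 11.1, 8.91 and 22.7 CPM in CT-26 muscle, against 13.3, 18.2 and 16.8 CPM in control muscle. CT-26 mouse 3 was the highest of all 6 libraries and CT-26 mice 1 and 2 were the lowest. The log2 fold change was -0.17 ± 0.32 (SE, n = 3; edgeR adjusted p = 0.692). Mfap5 fell by 0.68 when CT-26 mouse 3 was left out (edgeR adjusted p = 0.024), and its value was 0.05 when counts were scaled by library totals.

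Clec3b encodes tetranectin, a secreted protein that binds plasminogen, and had 2.20, 4.65 and 5.65 CPM in CT-26 muscle, against 15.9, 16.5 and 16.9 CPM in control muscle. The control libraries were nearly equal, and CT-26 mouse 1, with 104 estimated counts, held the lowest count of any of the 10 genes in a muscle library. Clec3b fell by 2.00 ± 0.30 on the log2 scale, or 3.99-fold (SE, n = 3; edgeR adjusted p = 0.00173).

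Pi16 encodes a secreted peptidase inhibitor and marks, with Dpt, a fibroblast state described in many mouse tissues. It had 8.56, 13.1 and 18.6 CPM in CT-26 muscle, against 35.3, 44.8 and 38.0 CPM in control muscle. The highest CT-26 library lay below the lowest control by a wide margin. Pi16 fell by 1.56 ± 0.26 on the log2 scale, or 2.95-fold (SE, n = 3; edgeR adjusted p = 0.00265).

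Of the surface proteins, Cd34 is a sialomucin found on fibroblasts, endothelium and blood progenitors. It had 24.8, 26.8 and 36.6 CPM in CT-26 muscle, against 51.2, 47.1 and 50.0 CPM in control muscle. The groups did not overlap, and Cd34 fell by 0.75 ± 0.16 on the log2 scale, or 1.68-fold (SE, n = 3; edgeR adjusted p = 0.00777). On log2(TPM + 0.5) the change was -0.37 and was not called (limma adjusted p = 0.124).

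Ly6a encodes Sca-1, a lipid-anchored protein used to sort fibro-adipogenic progenitors and also found on mouse endothelium. It had 22.3, 18.4 and 39.5 CPM in CT-26 muscle, against 16.5, 18.5 and 22.03 CPM in control muscle. CT-26 mouse 2 had about the level of control mouse 2, and the groups overlapped. The log2 fold change was 0.49 ± 0.27 (SE, n = 3; edgeR adjusted p = 0.180). On the TPM scale Ly6a had 49.9, 32.9 and 72.4 TPM in CT-26 muscle, against 26.6, 28.5 and 28.3 TPM in control muscle, and there the groups did not overlap and the change of 0.81 on log2(TPM + 0.5) was called (limma adjusted p = 0.0248).

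The median of all genes also moved with the scale. The log2 fold change of the median gene in the gastrocnemius was 0.00 with TMM scaling, 0.20 with library totals and 0.28 on log2(TPM + 0.5), and of the genes called 51.7%, 70.4% and 81.5% were higher under these scalings. Relative to that median, Ogn was at -2.32, -2.33 and -2.11, Dcn at -0.62, -0.63 and -0.52, and Ly6a at 0.49, 0.52 and 0.53. The directions of the 7 called genes held under all 3 scalings, and 5 of them (Ogn, Clec3b, Pi16, Dpt and Lum) were called under each.

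**Figure D2:**
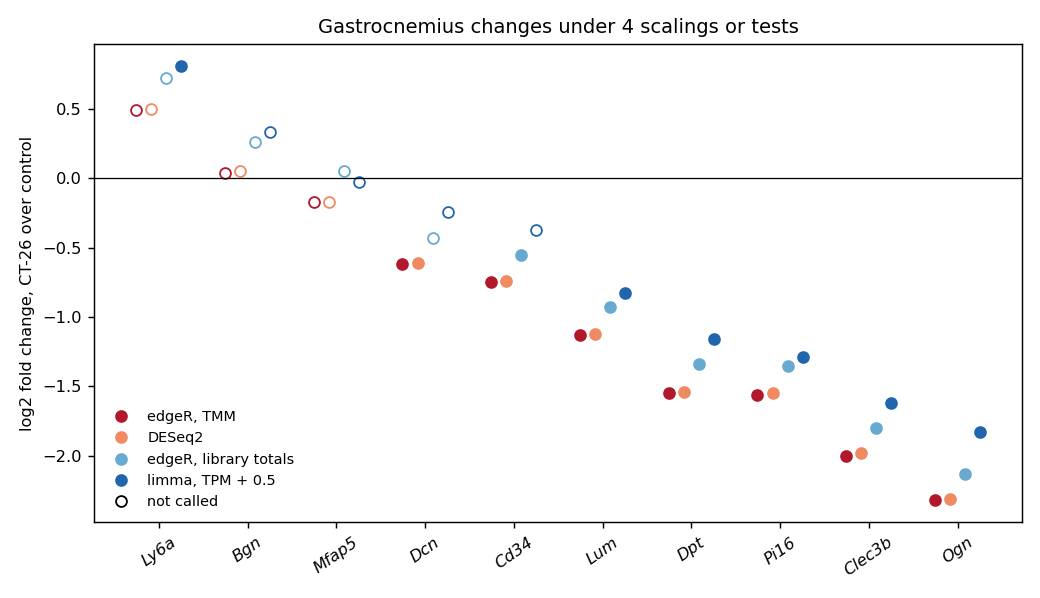
Log2 fold change of each gene in the gastrocnemius, CT-26 over control, under edgeR with TMM scaling, DESeq2, edgeR with library totals and limma on log2(TPM + 0.5), with open points where the adjusted p was 0.05 or more. All 10 genes have higher values in TPM than with TMM scaling, Dcn and Cd34 are filled with TMM scaling and open in TPM, and Ly6a is the reverse.

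Levels between genes can be set side by side in TPM, which is per length. Dcn was the most abundant in both groups, with 225.6 ± 3.83 TPM in CT-26 muscle and 272.2 ± 63.4 TPM in control muscle (SD, n = 3). It made up 58.2% of the summed TPM of the 10 genes in CT-26 muscle and 59.9% in control muscle. In CT-26 muscle Ly6a followed at 51.7 ± 19.8 TPM and Bgn at 44.1 ± 14.7 TPM, and their ranges overlapped. In control muscle Bgn followed at 33.8 ± 1.24 TPM and Ly6a at 27.8 ± 1.03 TPM, with ranges apart. Ogn stood last of the 10 in CT-26 muscle at 3.99 ± 0.462 TPM, its range overlapping that of Pi16 next above it, and was at 15.7 ± 3.60 TPM in control muscle. In control muscle the genes from Ly6a down to Pi16 each overlapped the next in order, and Lum, at 10.8 ± 0.122 TPM, stood apart below Pi16.

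The CT-26 mice kept an order across the list. CT-26 mouse 3 had the highest CPM of its group for all 10 genes, CT-26 mouse 1 the lowest for 7 and CT-26 mouse 2 the lowest for 3. The 10 genes summed to 409.7, 464.7 and 582.6 CPM in CT-26 muscle, against 780.1, 831.2 and 691.8 CPM in control muscle. Without Dcn the sums were 149.2, 157.2 and 264.1 CPM in CT-26 muscle, against 293.7, 325.9 and 317.4 CPM in control muscle. The genes share their libraries, so these orders are not separate observations.

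Other small leucine-rich proteoglycans were lower too. A gene was tested in muscle if at least 3 libraries reached 0.337 CPM before TMM scaling, and all 10 genes reached it in all 6. Of 13 further members of the family listed, 9 passed this minimum, and 8 of these were lower while Tsku was not called. Kera, Chad and Omd, which are among the 8, reached the minimum in all 3 control libraries but not in all 3 CT-26 libraries, so they passed through the control libraries alone and their calls lend the family no weight. Of the 6 that reached it in all libraries 5 were lower, and the 8 lower genes were 5 on log2(TPM + 0.5). Fmod, which encodes fibromodulin of tendon and fascia, had 14.5, 10.2 and 11.98 CPM in CT-26 muscle, against 181.6, 177.2 and 91.3 CPM in control muscle, and was 12.2-fold lower (edgeR adjusted p = 0.000204). Ecm2, a relative of the family, was lower by a log2 value of -2.01 ± 0.23 (edgeR adjusted p = 0.000674). Kera, which encodes keratocan, had 0.0635, 0.503 and 0.359 CPM in CT-26 muscle, against 18.9, 16.3 and 10.1 CPM in control muscle. Chad, which encodes chondroadherin of cartilage and tendon, had 0.0423, 0.155 and 0 CPM in CT-26 muscle, against 23.6, 19.97 and 8.17 CPM in control muscle.

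**Figure D3:**
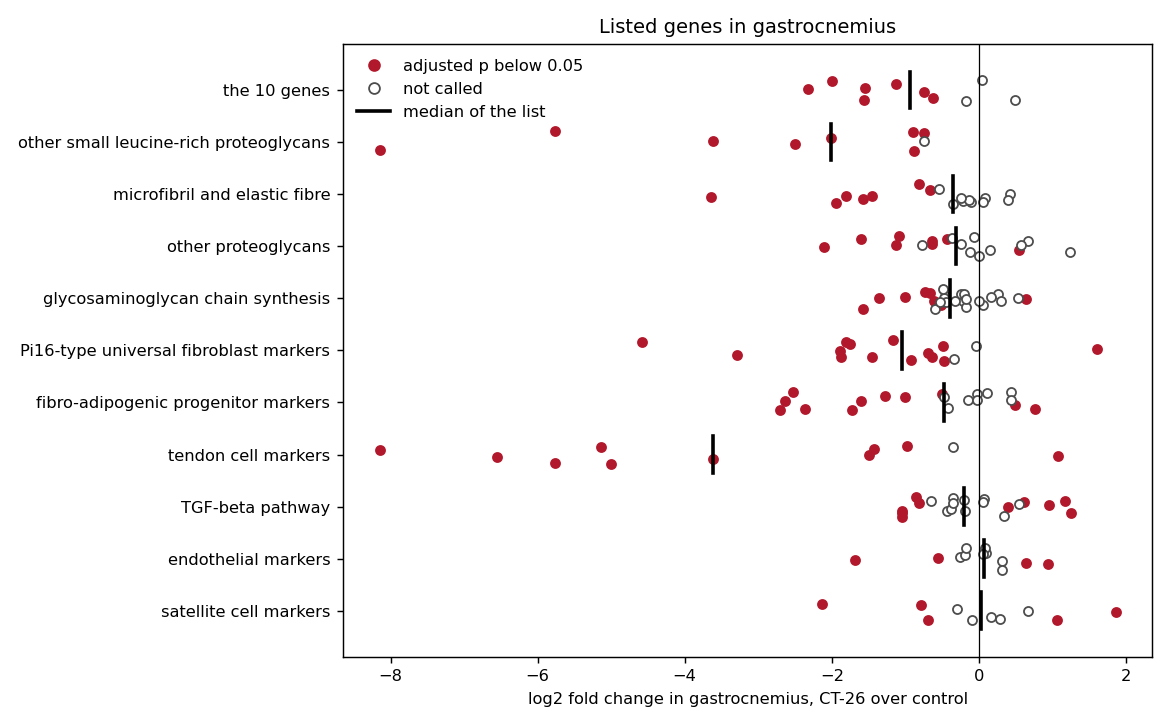
Log2 fold change in the gastrocnemius, CT-26 over control, of every tested gene in 11 lists, with filled points at an adjusted p below 0.05 and a bar at the median of each list. The 10 genes have a median of -0.94. The bars of the other small leucine-rich proteoglycans, at -2.01, and of the tendon markers, at -3.61, include 3 and 6 genes that passed the minimum count through the control libraries alone, while the endothelial and satellite cell markers centre near 0.

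On chromosome 13, Ecm2, Aspn, Omd and Ogn lie in a row with gaps of 11.7, 14.9 and 15.2 kb. Ecm2, Aspn and Ogn were lower in CT-26 muscle, with log2 fold changes of -2.01, -0.88 and -2.32. Omd had 0.169, 0.155 and 0.329 CPM in CT-26 muscle, against 1.24, 1.36 and 1.14 CPM in control muscle, and passed the minimum through the controls. On chromosome 10, Dcn, Lum and Kera lie in a row with gaps of 47.0 and 34.2 kb, and Dcn and Lum were lower at -0.62 and -1.13, with Kera as given above. Epyc, next in that row, was not tested for lack of counts. On chromosome 15, Ly6a lies 46.0 kb from Ly6c1.

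Of 30 listed genes for proteoglycans of other families or their link proteins 18 were tested. Of these 7 were lower and 1, Tgfbr3, was higher, with a median of -0.30. That balance depended on scaling and on single mice: 4 were lower and 3 higher with library totals, 3 and 3 on log2(TPM + 0.5), and 16 and 4 in the fit of all 12 libraries. Without control mouse 1, 4 were lower and 1 higher, without control mouse 2, 4 and 0, and without CT-26 mouse 2, 6 and 4. Gpc6, among the 7, passed the minimum through the controls alone. Hspg2, which encodes perlecan of basement membranes, was lower at -1.13 ± 0.14 and the cell-surface genes Sdc2 and Gpc3 were lower at -1.09 ± 0.13 and -1.61 ± 0.24 on the log2 scale. Of 26 tested genes that build glycosaminoglycan chains 7 were lower and 1 was higher, with a median of -0.39. Over all genes tested in muscle 18.3% were lower and 19.6% higher. The 7 lower chain genes became 3 with library totals, 1 on log2(TPM + 0.5) and 12 in the fit of all 12 libraries, and 4 without CT-26 mouse 1 and 3 without control mouse 1. Xylt1, which starts the chain on the core protein, was lower at -1.58 ± 0.30. Dse, whose enzyme makes the iduronic acid of dermatan sulfate, was lower at -1.01 ± 0.22, and Chpf2, a chondroitin chain gene, was higher at 0.64 ± 0.15.

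Around Mfap5, 7 of 17 tested microfibril and elastic fibre genes were lower and the other 10 were not called, with a median of -0.35. Fbn1, which encodes fibrillin-1, the backbone of the microfibril, had 13.2, 11.9 and 18.2 CPM in CT-26 muscle, against 51.6, 61.4 and 53.7 CPM in control muscle (log2 fold change -1.94 ± 0.18, edgeR adjusted p = 0.000303). Mfap4 was lower at -3.65 ± 0.29, Ltbp4 at -1.57 ± 0.14, Efemp1 at -1.45 ± 0.23 and Mfap2, the relative of Mfap5, at -1.81 ± 0.33.

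Of 16 tested genes known from Pi16-type fibroblasts 13 were lower and 1 was higher, with a median of -1.05. On log2(TPM + 0.5) 7 were lower, and 2 of the 13, Efhd1 and Stmn4, passed the minimum through the control libraries alone. Igfbp5, which encodes a secreted binding protein of insulin-like growth factors, had 18.8, 51.9 and 28.6 CPM in CT-26 muscle, against 872, 913 and 591 CPM in control muscle (log2 fold change -4.58 ± 0.40). Pcsk6, Efhd1 and Cd248 were lower at -1.89 ± 0.16, -3.29 ± 0.32 and -1.81 ± 0.22. The gene that was higher, Ugp2, encodes an enzyme of glycogen synthesis that muscle fibres also use. With Ugp2 the list summed to 2070, 2029 and 1912 CPM in CT-26 muscle, against 1761, 1815 and 1709 CPM in control muscle. Ugp2 was set aside after its value was seen, and without it the sums ran the other way. They were then 294.1, 367.8 and 313.4 CPM in CT-26 muscle, against 1279, 1355 and 999.6 CPM in control muscle, where most of the sum was Igfbp5.

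Markers of fibro-adipogenic progenitors were divided. Of 19 tested, 9 were lower and 2 were higher, with a median of -0.47. The 2 higher became 0 without CT-26 mouse 3, control mouse 1 or control mouse 3 and 1 without control mouse 2, and were 4 with library totals and on log2(TPM + 0.5). Bmp3, among the 9, passed the minimum through the controls alone. The defining marker Pdgfra, the receptor by which these cells are recognised, had 14.1, 16.9 and 16.9 CPM in CT-26 muscle, against 14.3, 16.0 and 18.2 CPM in control muscle, and was not called (log2 fold change -0.02 ± 0.14, edgeR adjusted p = 0.934). The groups overlapped fully for Pdgfra. The 2 higher genes were Hsd11b1 and Cxcl14, which reached the minimum in every muscle library. The 4 called genes of smallest p were all lower. They were Thy1, Serpinf1, Sfrp4 and Col15a1, at -2.64 ± 0.23, -2.36 ± 0.29, -2.71 ± 0.41 and -1.73 ± 0.13 on the log2 scale.

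In the TGF-beta pathway, whose ligands decorin and biglycan can bind, 5 of 21 tested genes were higher and 5 lower, with a median of -0.20. Over all genes tested in muscle 19.6% were higher and 18.3% lower, so these counts lay near the shares of all genes. Without control mouse 1 the higher genes were 3, and on log2(TPM + 0.5) 7 were higher and 2 lower. Tgfb1, a ligand, was not called at -0.19 ± 0.19 (edgeR adjusted p = 0.477). The receptor gene Tgfbr1 was higher at 0.95 ± 0.15, and Bmp1, Ltbp1 and Skil were lower at -1.04 ± 0.17, -0.81 ± 0.14 and -0.85 ± 0.15. Of 18 tested proteases of the matrix 3 were higher and 5 lower, with a median of 0.11. Htra1 and Adamts5, whose enzymes cut proteoglycans, were lower at -1.21 ± 0.15 and -1.24 ± 0.19, and Plat, the tissue plasminogen activator, was lower at -1.13 ± 0.21. The 3 higher genes were Mmp9, which encodes a gelatinase, at 2.71 ± 0.62, Adamts4, a relative of Adamts5 that also cuts proteoglycans, at 1.34 ± 0.38, and Mmp11 at 0.73 ± 0.21. Mmp9 and Adamts4 each reached the minimum count in 2 of 3 control libraries and in all CT-26 libraries. They thus passed through the CT-26 libraries alone, and their calls carry no weight. Of the 15 proteases that reached it in all libraries 1 was higher and 5 were lower. Mmp9 also stands in the neutrophil list. The 5 lower genes became 3 without CT-26 mouse 2, control mouse 1 or control mouse 2, and the 3 higher became 1 without CT-26 mouse 1 or control mouse 1 and 5 without CT-26 mouse 2. With library totals 4 were higher and 3 lower, and on log2(TPM + 0.5) 6 were higher and 3 lower.

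Markers of other cell types are given beside the 10 genes, and their part in the results was not tested. Over all genes tested in muscle 19.6% were higher and 18.3% lower, and the endothelial and satellite cell counts below lay near these shares. Of 11 tendon markers, all tested, 9 were lower and 1, Scx, was higher at 1.08 ± 0.29, a call lost without CT-26 mouse 3, control mouse 2 or control mouse 3. Of the 9, 6 passed the minimum through the control libraries alone, namely Chad, Kera, Tnmd, Comp, Cilp2 and Mkx, so the count carries no weight, and of the 5 markers that reached it in all libraries 3 were lower. The 11 summed to 54.2 to 95.3 CPM in CT-26 muscle, against 206.2 to 394.9 CPM in control muscle. The defining tendon marker Tnmd had 0.254, 0.387 and 0.299 CPM in CT-26 muscle, against 13.0, 14.8 and 4.80 CPM in control muscle. Fmod, Kera and Chad stand in both the tendon list and the proteoglycan list. Of 12 endothelial markers 2 were higher and 2 lower, with Pecam1 not called at 0.31 ± 0.16, Esam and Cldn5 higher at 0.64 ± 0.14 and 0.94 ± 0.22, and Kdr and Cdh5 lower at -1.69 ± 0.17 and -0.56 ± 0.13. On log2(TPM + 0.5) 4 were higher and 1 lower. They summed to 298.9 to 341.2 CPM in CT-26 muscle, against 303.0 to 382.3 CPM in control muscle. All 8 tested neutrophil markers were higher, but each reached the minimum in all 3 CT-26 libraries and not in all 3 control libraries, and 6 of them in 0 control libraries, so that count carries no weight. The list summed to 156.6, 31.4 and 24.2 CPM in CT-26 muscle, against 0.876, 1.06 and 1.46 CPM in control muscle. Macrophage markers summed to 165.7, 63.3 and 200.5 CPM in CT-26 muscle, against 94.7, 102.6 and 86.2 CPM in control muscle, with 2 of 10 tested higher, from 0 to 6 when each mouse was left out, and the defining Adgre1 not called at 1.03 ± 0.60. Of 10 satellite cell markers 2 were higher, Cdh15 at 1.86 ± 0.12 and Itga7 at 1.06 ± 0.12, and 3 lower. The lower ones were Heyl at -0.69 ± 0.15 and Hey1, both with every library at the minimum, and Calcr, which passed through the controls alone. Pax7, which defines these cells, was not called at -0.10 ± 0.34. Of 10 pericyte and smooth muscle markers 1 was higher and 3 were lower. The higher one, Des, encodes desmin, which muscle fibres also make, and was at 1.32 ± 0.19. Rgs5 was lower at -0.86 ± 0.17, Cnn1 at -1.48 ± 0.37 and Notch3 at -0.43 ± 0.13, and Acta2 was not called at -0.72 ± 0.26. The list, most of it Des, summed to 7874 to 9551 CPM in CT-26 muscle, against 3749 to 3906 CPM in control muscle. Without control mouse 3, 2 were higher and 1 lower, and on log2(TPM + 0.5) 2 and 0. Over all 17 lists 81 genes were lower with TMM scaling and 45 on log2(TPM + 0.5). Of all 14265 genes tested 2616, or 18.3%, were lower with TMM scaling and 1018 on log2(TPM + 0.5). The 81 include the genes that passed the minimum through the control libraries alone, so that total carries no weight.

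Beyond the 10 genes themselves, those whose profile over the 6 muscle libraries lay nearest to the median profile of the 10 genes were Bmp1, Frmpd1, Snrpf, Lgi2 and Eif2ak2. Likeness was the Euclidean distance between log2 CPM values centred on each gene's mean, and it was 0.127 for Bmp1 and 0.207 for Eif2ak2. Frmpd1 lay near the floor, with 0.169, 0.194 and 0.299 TMM-scaled CPM in CT-26 muscle, where the minimum was 0.337 CPM before that scaling. In control muscle it had 0.511, 0.55 and 0.4975 CPM. Bmp1, whose protease also trims the propeptides of procollagen and of several small leucine-rich proteoglycans, had 7.84, 9.53 and 12.3 CPM in CT-26 muscle, against 19.97, 20.1 and 21.0 CPM in control muscle. Among the 10 genes the distance to that median profile ran from 0.413 for Cd34 to 1.90 for Ly6a.

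In the hypothalamus all 10 genes were at lower TPM than in muscle in the control mice, and Ly6a was the only one of the 8 tested genes that was called. Control muscle had 190-fold the TPM of control hypothalamus for Dpt, 44.1-fold for Mfap5, 24.9-fold for Dcn and 2.33-fold for Pi16, the smallest ratio of the 10. Dpt had 3 to 15 and Mfap5 2 to 12 estimated counts per hypothalamus library, and neither passed the minimum count. DESeq2 also called Cd34 and Dcn higher there. By edgeR's test with Benjamini-Hochberg adjustment 3.94% of the 17961 genes tested in the hypothalamus were higher and 4.83% were lower.

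Ly6a had 9.20, 6.38 and 8.12 CPM in the hypothalamus of CT-26 mice 1, 2 and 3, against 2.92, 2.36 and 2.65 CPM in control mice 1, 2 and 3. Every CT-26 library held more than every control library, as was so for 14.7% of all genes tested there. Ly6a rose by 1.58 ± 0.16 on the log2 scale, or 3.00-fold (SE, n = 3; edgeR adjusted p = 0.000503). Its neighbours and relatives Ly6c1 and Ly6c2 also rose there, by 1.16 (edgeR adjusted p = 0.00197) and 0.90 (edgeR adjusted p = 0.0116), while Ly6e was not called at -0.21. In muscle Ly6c1 rose by 0.82 ± 0.22 (edgeR adjusted p = 0.0204), a call lost without CT-26 mouse 3, control mouse 1 or control mouse 2 (edgeR adjusted p = 0.053 to 0.0802). Of the 100-base windows in the Ly6a transcripts 1.45% also occur in Ly6c1, so a small part of the reads could be divided between them.

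Beside the rise of Ly6a in the hypothalamus, 1 of 12 endothelial markers was higher (Pecam1 at 0.41, edgeR adjusted p = 0.0302), 1 was lower (Kdr at -0.41), Cdh5 was at -0.03, and their sums of 171.7 to 199.6 CPM in CT-26 mice overlapped those of 157.1 to 188.6 CPM in control mice. Of 12 macrophage markers, which microglia share, 4 were higher and 0 lower. Lyz2, which encodes a lysozyme, had 14.4, 17.3 and 10.4 CPM in CT-26 mice, against 5.15, 4.26 and 4.61 CPM in control mice, and rose by 1.58 ± 0.18, or 2.98-fold (edgeR adjusted p = 0.000783). The complement genes C1qa, C1qb and C1qc rose by 0.54, 0.31 and 0.66, while the defining Adgre1 was not called at 0.24 ± 0.17. The list summed to 165.0 to 196.0 CPM in CT-26 mice, against 150.1 to 157.9 CPM in control mice, and in the fit of all 12 libraries 0 of its genes were called. Of 8 tested neutrophil markers 6 were higher, all of which passed the minimum through the CT-26 libraries alone, so that count was fixed by the filter, and S100a8 had 31.4, 7.68 and 3.03 CPM in CT-26 mice, against 0.0339, 0 and 0.181 CPM in control mice. Of 18 tested interferon-response genes 1 was higher and 1 lower, beside 3.94% higher and 4.83% lower of all genes tested in the hypothalamus. Fbln5, a gene of the microfibril and elastic fibre list, rose by 2.16 (edgeR adjusted p = 9.37e-06). The part of these markers in the Ly6a result was not tested.

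The remaining genes were not called in the hypothalamus, and 1 library stood apart for several of them. Cd34 had 16.9, 17.4 and 14.2 CPM in CT-26 mice, against 12.4, 11.4 and 14.1 CPM in control mice, a log2 fold change of 0.35 ± 0.11 (edgeR adjusted p = 0.0648). The groups just failed to overlap for Cd34. Dcn had 19.4, 24.0 and 17.8 CPM in CT-26 mice, against 18.0, 14.1 and 14.3 CPM in control mice (0.39 ± 0.13, edgeR adjusted p = 0.0796). Ogn had 4.22, 13.4 and 2.76 CPM in CT-26 mice, against 4.27, 3.61 and 3.05 CPM in control mice (0.86 ± 0.47, edgeR adjusted p = 0.286), so its mean rested on CT-26 mouse 2, without which the log2 fold change was -0.07. Clec3b was at -0.38 ± 0.20, Lum at -0.20 ± 0.41, Bgn at -0.11 ± 0.16 and Pi16 at 0.20 ± 0.10.

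CT-26 mouse 2 was also the highest of the 6 hypothalamus libraries for 17 of 20 markers of meningeal and perivascular fibroblasts, the fibroblasts of the brain's coverings and vessels. Of the 20, 1 was called, Spp1, which was higher at 0.66. The markers summed to 110.8, 232.4 and 98.5 CPM in CT-26 mice, against 135.1, 116.0 and 122.6 CPM in control mice. The defining marker Slc6a13 had 2.29, 6.78 and 2.12 CPM in CT-26 mice, against 2.78, 2.27 and 2.98 CPM in control mice, and Fmod had 7.80, 25.8 and 5.87 CPM in CT-26 mice, against 8.03, 6.74 and 6.64 CPM in control mice. The part of these markers in the values of Ogn, Lum and Dcn was not tested, and the rise of Ly6a was 1.72 or less and 1.47 or more whichever mouse was left out.

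**Figure D4:**
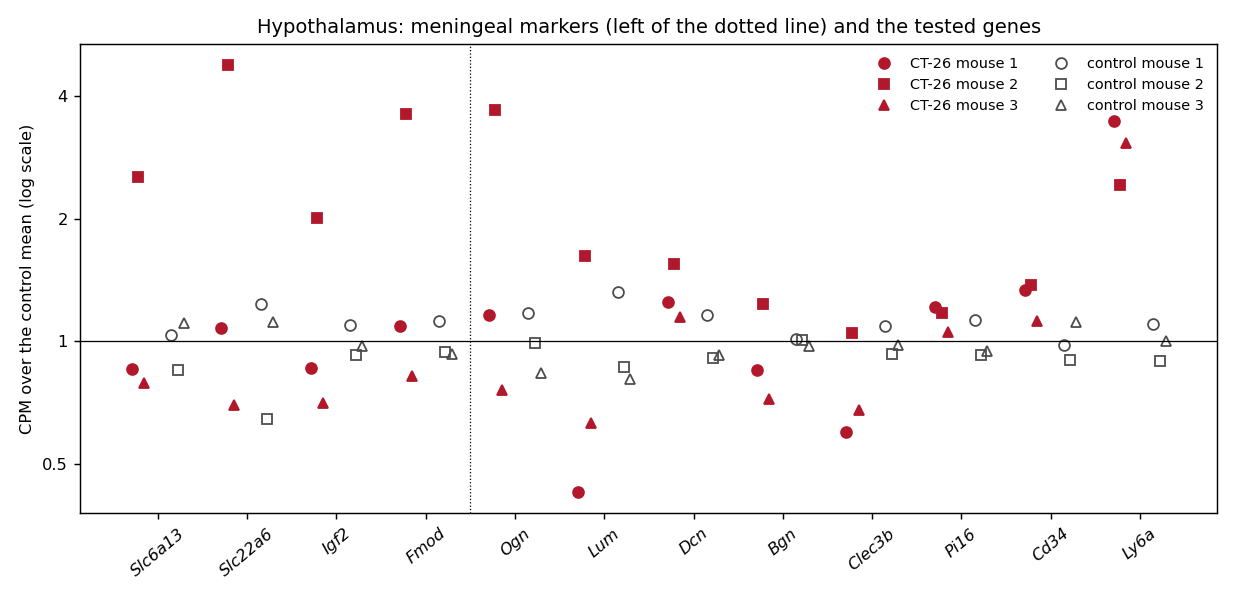
CPM of 4 meningeal fibroblast markers and of the 8 tested genes in each hypothalamus library, divided by the control mean and drawn on a log axis. The filled square, CT-26 mouse 2, stands above the other libraries for the 4 markers and for Ogn, Lum, Dcn and Bgn, while for Ly6a all 3 CT-26 mice stand above the controls.

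The changes in muscle and hypothalamus were compared in a fit of all 12 libraries, in which 14.0% of the 18746 genes tested had a lower and 12.4% a higher value of the change in muscle minus the change in hypothalamus. That difference was below 0 and called for 7 of the 10 genes, among them Dpt, which was not tested in the hypothalamus alone. The difference was -3.19 ± 0.59 for Ogn (edgeR adjusted p = 0.00169), -1.77 ± 0.30 for Pi16 (edgeR adjusted p = 0.000852), -1.64 ± 0.39 for Clec3b (edgeR adjusted p = 0.00729) and -1.11 ± 0.20 for Cd34 (edgeR adjusted p = 0.0013). The difference for Ogn, whose hypothalamus mean rested on CT-26 mouse 2, ran from -3.73 to -2.22 when each mouse was left out. Dcn had a difference of -1.03 ± 0.21 (edgeR adjusted p = 0.00323), called in 12 of 14 alternative fits. Dpt, with few counts in the hypothalamus, had a difference of -2.35 ± 0.58 (edgeR adjusted p = 0.00976). Dpt passed the minimum count of this fit through the muscle libraries, so its call is given no weight. For Ly6a the difference was -1.11 ± 0.36 (edgeR adjusted p = 0.0366), here a larger rise in the hypothalamus than the uncalled value in muscle, and that call held in 7 of 14 alternative fits. Lum at -0.94 ± 0.60, Bgn at 0.14 ± 0.31 and Mfap5 at 0.21 ± 0.90 were not called.

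**Figure D5:**
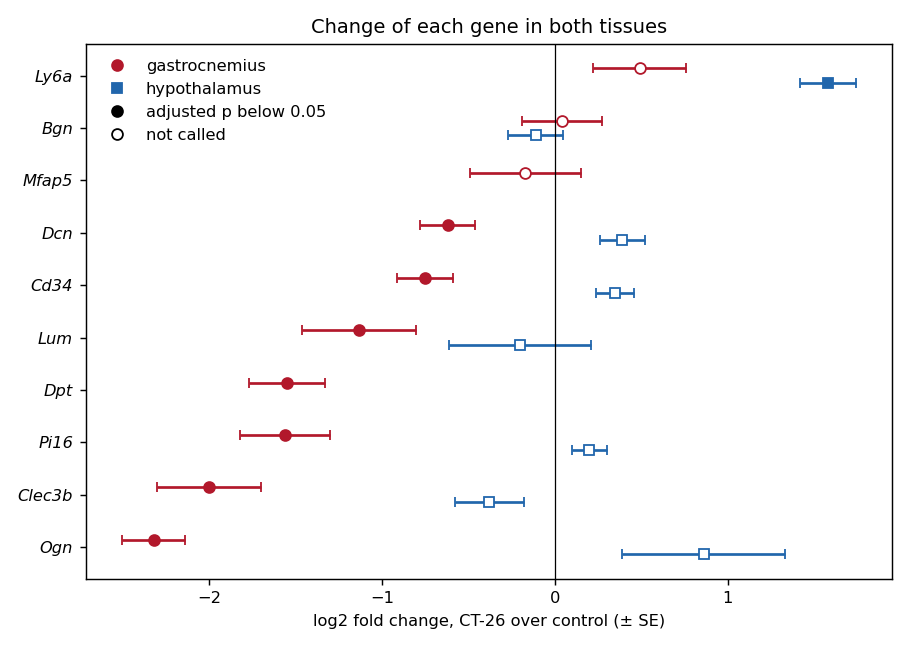
Log2 fold change, CT-26 over control, with its SE for each of the 10 genes in the gastrocnemius (circles) and of the 8 genes tested in the hypothalamus (squares), with filled symbols at an adjusted p below 0.05. Ogn, Clec3b, Pi16, Dpt, Lum, Cd34 and Dcn are below 0 and filled in muscle, and Ly6a is the only filled square, at 1.58.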

How the data were processed

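RNA from the gastrocnemius and hypothalamus of the same 6 mice was sequenced as 100 bp pairs from a directional kit, per the labels' protocols. The submitters' processing notes name RSEM 1.3.3, STAR 2.7.9a and Trim Galore 0.6.6 and the build GRCm38, and the annotation release and strand setting are not given in the sources used here. The deposited tables, per the file headers, hold expected counts, which estimate the fragments of each gene and are not always whole numbers. The deposited tables also hold TPM, scaled by the authors per effective length and to a total of 1000000, and FPKM, which was not used. Of 55416 identifiers, 52135 were named from GENCODE's GRCm38 annotation, with 99.648% of the counts.

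Expected counts were rounded and tested in edgeR 4.0.16 (R 4.3.3) by the quasi-likelihood test with filterByExpr and TMM, within each tissue and, for the difference between tissues, over all 12 libraries, with Benjamini-Hochberg adjustment over all genes tested. The steps were tested on simulated data. Alternatives were DESeq2 1.42.0, its size factors in edgeR, library totals, no minimum count, a minimum of 1 CPM in 3 libraries, limma 3.58.1 on log2(TPM + 0.5) and log2(TPM + 0.1), a replicate block, 1 fit of all 12 libraries and leaving out each mouse. Within a tissue the labels give no pairing of CT-26 with control mice by number. Between tissues the numbers pair both tissues of a mouse, per the labels, and the block changed no call of the 10 genes. The 10 genes and 17 lists beside them were chosen with earlier results of these data known. Named genes were the 10, defining markers, Tgfb1, Fbn1, Mfap2, Ly6e and Ly6c1, and from each list up to 4 called genes of smallest p in muscle and up to 2 in hypothalamus. Aspn, Omd, Ugp2, Tgfbr3, Scx, Tsku, Slc22a6, Igf2, Gpc6, Stmn4, Bmp3, Comp, Cilp2, Mkx, Mmp11, C1qa, C1qb, Cxcl14, Hey1 and, in muscle, Adamts4 and Hsd11b1 fell outside that rule or were chosen after their values were seen. Reads per gene set the precision, and n = 3 mice per group limits it further.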

Additional observations from a re-analysis of the deposited data

Results flagged for a closer look

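For 7 of the 10 genes the test of the difference itself, over all 12 libraries, called the change with CT-26 different between muscle and hypothalamus. Of all 18746 genes tested 14.0% had a lower and 12.4% a higher difference. Over 14 alternative fits the call held in 7 for Ly6a and in 12 for Dcn. It held in all 14 for Ogn, Pi16, Clec3b and Cd34. The call of Dpt also held in all 14, but Dpt passed the minimum count through the muscle libraries, so its call is given no weight. The log2 change in the gastrocnemius minus that in the hypothalamus was -3.19 for Ogn, -2.35 for Dpt, -1.77 for Pi16, -1.64 for Clec3b, -1.11 for Cd34, -1.11 for Ly6a and -1.03 for Dcn. The value for Ogn ran from -3.73 to -2.22 when each mouse was left out. Ly6a was called higher in the hypothalamus and not called in muscle, and the other 6 were called lower in muscle and not called, or for Dpt not tested, in the hypothalamus.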

How the results depend on the processing

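The 7 lower genes in muscle were 5 to 8 when each mouse was left out, 6 with library totals and 5 with either TPM pseudocount, and 7 under every other alternative run. On log2(TPM + 0.5) and log2(TPM + 0.1), 1 gene, Ly6a, was called higher in muscle, and the lists beside the 10 genes held 45 and 46 lower genes in place of 81. Of all 14265 genes tested 1018 and 1046 were lower on these scales, in place of 2616. In the hypothalamus the 1 gene called higher became 3 in DESeq2, 4 with no minimum count and 1 to 2 when each mouse was left out, and Clec3b was the 1 gene called lower without CT-26 mouse 2, so leaving out mice gave 0 to 1. The 7 differences between tissues were 5 to 7. With the replicate block the counts were 7, 1 and 7. For each muscle library the deviation of log2 CPM from its group mean was taken over the genes tested. Between same-numbered CT-26 and control mice these deviations correlated at -0.0572, 0.182 and 0.259, and between mice of different numbers at -0.249 to 0.1. The deviations within a group cancel, so these correlations are not independent of each other. Over all genes in muscle the block gave 2834 lower and 2887 higher. The labels give no pairing of CT-26 with control mice, and whether same-numbered mice shared a factor was not tested.

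Values near 0 changed sign. With library totals, log2(TPM + 0.5) and log2(TPM + 0.1), Pdgfra was at 0.19, 0.30 and 0.34, Pax7 at 0.09, 0.07 and 0.14 and Tgfb1 at 0.03, 0.21 and 0.22, and Mfap5 was at 0.05 with library totals. Leaving out mice gave ranges in muscle of -0.26 to 0.19 for Bgn, -0.68 to 0.06 for Mfap5, -0.10 to 0.07 for Pdgfra and -0.53 to 0.13 for Pax7. In the hypothalamus they were -0.86 to 0.11 for Lum, -0.34 to 0.07 for Bgn, -0.07 to 1.28 for Ogn, -0.27 to 0.77 for Slc6a13 and -0.10 to 0.10 for Cdh5, and for the difference between tissues -0.30 to 0.52 for Bgn and -0.75 to 0.77 for Mfap5. The cause was not tested.

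Over all genes in muscle 2616 were lower and 2801 higher, against 1662 and 3957 with library totals, 1018 and 4473 on log2(TPM + 0.5), 3984 and 3826 in the fit of all 12 libraries and 1779 to 2671 and 1768 to 2779 when each mouse was left out. In the hypothalamus 867 were lower and 708 higher, against 275 and 245 on log2(TPM + 0.5), 1291 and 1307 with no minimum count, 54 and 108 in the fit of all 12 libraries and 293 to 725 and 283 to 543 when each mouse was left out. For the difference between tissues 2629 were lower and 2323 higher, against 1634 and 3238 with library totals, 868 and 4081 on log2(TPM + 0.5) and 1696 to 2349 and 1492 to 2387 when each mouse was left out. Depth limits Dpt and Mfap5 in the hypothalamus, where they had too few counts to test.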
